A study of Mus musculus with 6 samples.

Results

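Monocytes and tissue macrophages are phagocytes of one lineage, and the genes by which they are recognised fall into sets. Circulating monocytes make Ly86, Ms4a6c, F13a1 and the lipopolysaccharide receptor gene Cd14. Resident macrophages of the spleen and other tissues make the complement C1q chains and Adgre1, which encodes a surface antigen widely used to stain mouse macrophages. Mpeg1 and Cd68 are counted here as markers of both. The sets follow common use of the genes as markers and are not exclusive. The 10 genes Ly86, Ms4a6c, F13a1, Cd14, Mpeg1, Cd68, Adgre1, C1qa, C1qb and C1qc were followed here in sorted mouse leukemia cells. They were chosen by name, out of 22180 genes that a single-gene probe set represents, and each had 1 probe set. All 10 were among the 15526 genes tested, and in both genotypes their mean levels lay above 4.13, the lowest mean admitted to the test.

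RNA came from 6 samples, 3 from Mx1-Cre mice with the Cbfb+/56M allele, called control here, and 3 from mice that carried Chd7f/f as well. Both groups therefore have the Cre recombinase, the Cbfb+/56M allele, a conditional form of the Cbfb-MYH11 fusion of inv(16) acute myeloid leukemia, and treatment with pIpC and the mutagen ENU. Mx1-Cre is driven by a promoter that answers interferon, so it is active in many blood cells and is not restricted to leukemic ones. Cells that carry the receptor c-Kit had been sorted from the spleen at the end stage of disease. The series asks how expression differs when Chd7, which encodes a nucleosome remodeller, is floxed. Each sample was hybridised to 1 Affymetrix array, and with 3 arrays a genotype every estimate is imprecise. No age is given, and the labels do not tie a sample to a single animal. The tests therefore gauge sample-to-sample spread, which may be partly technical. Levels are RMA values on the log2 scale, and differences are Chd7f/f minus control.

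Kit, the gene behind the sort, was between 11.68 and 12.48 on the 6 arrays. Chd7 averaged 6.34 ± 1.12 over the control arrays and 5.96 ± 0.51 over the Chd7f/f arrays (SD, n = 3 each), a difference of -0.38 (SE 0.58; limma, adjusted p = 0.9998), and without control replicate 2 the difference was 0.22. Its single value per array does not check the deletion. Control replicate 2 stands apart by the sex-linked genes, with Xist at 10.1 and at most 3.88 on the other 5 arrays.

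The regulatory sequence of these genes is shown for the neighbours among them, since neighbours that vary together are taken up again under co-variation. C1qa, C1qc and C1qb follow each other on chromosome 4 with 0 protein-coding genes between them, and F13a1 and Ly86 are direct neighbours on chromosome 13 with opposite orientation. The sequences are the 250 bases before the RefSeq start site in GRCm38.p6, written 5′ to 3′ on the gene's strand. Capitals mark GAGGAA, the core bound by the myeloid factor PU.1, and TGTGGT, the core bound by RUNX factors, the partners of Cbfb, on either strand.
C1qb, chr4:136886201-136886450, minus strand: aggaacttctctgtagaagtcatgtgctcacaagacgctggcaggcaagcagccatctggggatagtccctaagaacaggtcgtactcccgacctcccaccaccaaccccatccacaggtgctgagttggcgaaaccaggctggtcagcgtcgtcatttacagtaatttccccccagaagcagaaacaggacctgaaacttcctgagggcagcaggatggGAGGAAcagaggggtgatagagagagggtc
C1qc, chr4:136892915-136893164, minus strand: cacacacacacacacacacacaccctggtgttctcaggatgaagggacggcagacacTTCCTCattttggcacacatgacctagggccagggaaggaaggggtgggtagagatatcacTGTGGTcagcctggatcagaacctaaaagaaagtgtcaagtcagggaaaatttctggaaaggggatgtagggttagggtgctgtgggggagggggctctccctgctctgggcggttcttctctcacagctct
F13a1, chr13:37050245-37050494, minus strand: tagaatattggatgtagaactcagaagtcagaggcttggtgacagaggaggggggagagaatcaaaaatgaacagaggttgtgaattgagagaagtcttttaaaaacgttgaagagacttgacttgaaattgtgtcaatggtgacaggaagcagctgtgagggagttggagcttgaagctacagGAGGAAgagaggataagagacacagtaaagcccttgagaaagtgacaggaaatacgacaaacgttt
Ly86, chr13:37345095-37345344, plus strand: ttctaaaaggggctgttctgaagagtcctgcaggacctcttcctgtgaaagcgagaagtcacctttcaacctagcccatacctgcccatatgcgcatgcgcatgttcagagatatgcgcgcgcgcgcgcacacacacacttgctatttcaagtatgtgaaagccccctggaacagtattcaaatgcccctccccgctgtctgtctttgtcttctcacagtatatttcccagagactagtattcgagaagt
The PU.1 core lay at -30 to -25 from the start site of C1qb, at -66 to -61 in F13a1 and, on the other strand, at -193 to -188 in C1qc, where a RUNX core followed at -132 to -127. Ly86 held neither. RefSeq windows were searched for 7 of the 10 genes, and not for C1qa, Adgre1 and Cd14. Of the 7, 4 held GAGGAA (C1qb, C1qc, Cd68 and 1 of the windows of F13a1), against 23.3% of all 32851 windows. Marker genes are counted by gene, with any window sufficing, and the shares by window, so the figures are not strictly alike. TGTGGT was in 1 of 7 and in 14.05% of all windows. TGCTGA, a half-site of MAF factors, was in 1 of 7 (C1qb) and in 16.1%, and TATAAA, the TATA box, in 0 of 7 and in 12.4%. Both strands were searched, no match of one motif overlapped another, and a match describes letters and not a bound site.

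The data hold no detection calls, so each level was set beside probe sets that should carry no signal in blood cells. These were 1420 probe sets of olfactory, vomeronasal and trace amine receptor genes, which serve smell and pheromone sensing. Their 95th percentile lay between 4.62 and 4.83 on the 6 arrays and is called the reference level here. Of the 10 genes, 8 were above it on all 6 arrays. The exceptions were Cd14, above it on 1 array, and Ms4a6c, above it on 5. The share of all genes above the reference level is not given, so the count of 8 does not mark these genes out. Against the stricter 99th percentile, between 6.24 and 6.57, only Cd68 and C1qb were above on all arrays, and Cd14, Adgre1 and C1qc on none. Levels of different genes come from different probes and are not compared with each other.

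**Figure D1:**
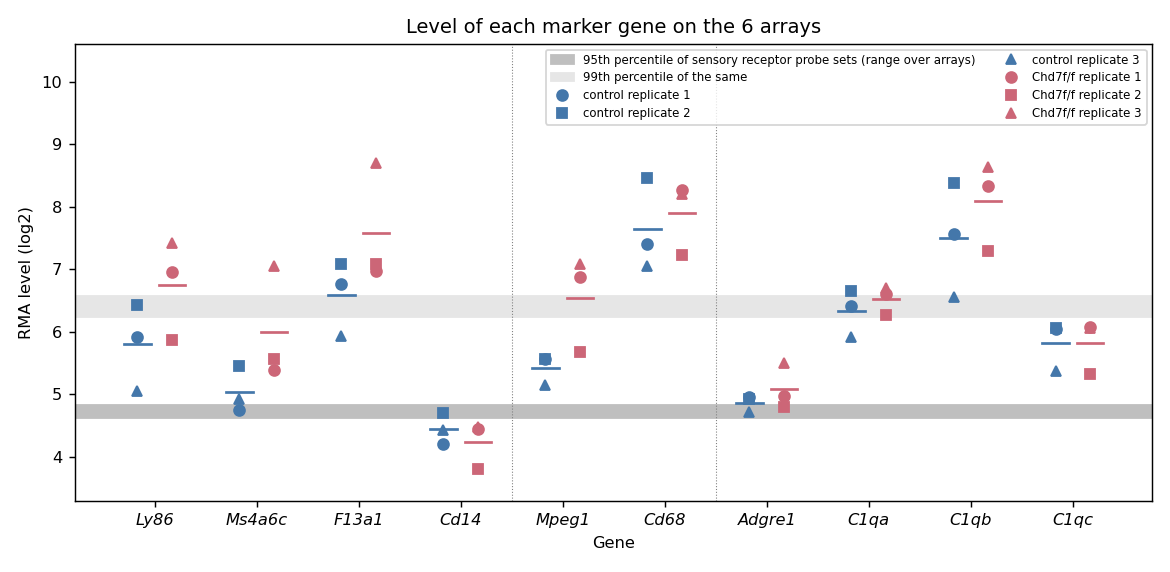
The plot of levels by gene shows the RMA level (log2, vertical axis) of each marker gene on every array, control in blue and Chd7f/f in red, with a short line at the mean of 3 arrays; grey bands give the range over arrays of the 95th and 99th percentiles of sensory receptor probe sets. Mpeg1 alone has its 3 Chd7f/f points above its 3 control points, and Cd14 lies at or under the lower band.

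No marker gene passed the test between genotypes after adjustment over all genes, and 0.0% of all genes did (limma, Benjamini-Hochberg). At an unadjusted p under 0.05 the counts were 1 of 10 marker genes and 1.84% of all genes tested, or 286; upward they were 1 of 10 and 0.696%. Of the 10 differences, 9 were above 0, where 43.7% of all genes were, though that of C1qc was 0.00028. A difference of at least 1.5-fold upward was seen in 5 of 10 marker genes (Mpeg1, F13a1, Ms4a6c, Ly86 and C1qb) and in 2.05% of all genes, and such a difference downward in 0 of 10 and 2.81%. The median difference was 0.43 over the 10 genes and -0.027 over all genes. By role it was 0.96 over the 4 monocyte markers and 0.21 over the 4 tissue macrophage markers. Single arrays weighed on these figures. Leaving out control replicate 3 gave 6 of 10 differences above 0 and medians of 0.14 over the 10 genes, 0.62 over the monocyte markers and 0.056 over the tissue macrophage markers. Leaving out Chd7f/f replicate 3 gave medians of 0.21, 0.44 and 0.064 in the same order. Over the 10 genes the median was 0.85 with control replicate 2 omitted and 0.79 with Chd7f/f replicate 2 omitted. The genes were taken up with earlier results of these arrays known, so these counts describe them and are not independent support for a direction. A different number of monocytes or macrophages in a sample and a different amount of marker RNA per cell, in whichever sorted cells make it, cannot be told apart in bulk RNA.

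Ly86 encodes MD-1, the secreted partner that holds the Toll-like receptor homologue CD180 at the cell surface. It was at 5.91, 6.43 and 5.06 in the control and at 6.96, 5.87 and 7.43 in Chd7f/f samples. Chd7f/f replicates 1 and 3 were above every control array, and Chd7f/f replicate 2 lay among the controls. The difference was 0.95 (SE 0.50; limma, unadjusted p = 0.104, adjusted p = 0.9998), and it came to 0.58 or 0.61 when control replicate 3 or Chd7f/f replicate 3, respectively, was omitted.

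F13a1 encodes the catalytic A subunit of coagulation factor XIII, the transglutaminase that cross-links fibrin, which monocytes and platelets carry. Its levels were 6.76, 7.08 and 5.94 in the control and 6.97, 7.08 and 8.70 in Chd7f/f. Chd7f/f replicate 3 stood 1.62 above the next array, while the other Chd7f/f arrays were within the control range or level with its top. The difference of 0.99 (SE 0.53; limma, unadjusted p = 0.111, adjusted p = 0.9998) came to 0.43 when Chd7f/f replicate 3 was left out. Array weights, which counted Chd7f/f replicate 3 most, raised it to 1.73.

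Ms4a6c, a four-pass membrane protein gene of the MS4A family, had the same array on top. It was at 4.74, 5.45 and 4.92 in the control and at 5.39, 5.57 and 7.05 in Chd7f/f, a gap of 1.48 between Chd7f/f replicate 3 and the next array. The difference was 0.96 (SE 0.46; limma, unadjusted p = 0.0818, adjusted p = 0.9998), and 0.44 without Chd7f/f replicate 3. Control replicate 1 was under the reference level for this gene.

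Cd14, the co-receptor that hands lipopolysaccharide to Tlr4 and MD-2, was close to the reference level. It was at 4.21, 4.71 and 4.42 in the control and at 4.44, 3.81 and 4.47 in Chd7f/f, at or under the reference on all arrays but control replicate 2, which barely exceeded it. The groups overlapped (difference -0.21, SE 0.23; limma, adjusted p = 0.9998).

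Mpeg1 encodes perforin-2, which forms pores in engulfed bacteria. Its levels were 5.57, 5.56 and 5.14 in the control and 6.88, 5.67 and 7.08 in Chd7f/f. The genotypes did not overlap, as for 6.81% of all genes in either direction and 2.45% with Chd7f/f above, but Chd7f/f replicate 2 was only just above the highest control. The difference was 1.12 (SE 0.38; limma, unadjusted p = 0.0258, adjusted p = 0.9998), and the exact two-sided permutation p was 0.1, the smallest that 3 against 3 arrays can give. Its unadjusted limma p rose above 0.05 without control replicate 3 (0.97 on the log2 scale), Chd7f/f replicate 1 (0.95), Chd7f/f replicate 3 (0.85) or both arrays numbered 1 (1.02).

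Cd68 encodes a glycoprotein of lysosome and endosome membranes. It was at 7.40, 8.46 and 7.05 in the control and at 8.26, 7.22 and 8.21 in Chd7f/f, with its highest level in control replicate 2. The groups overlapped, and the difference of 0.26 (SE 0.44; limma, adjusted p = 0.9998) became -0.032 without control replicate 3 and 0.67 when control replicate 2 was omitted.

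Adgre1, an adhesion G protein-coupled receptor gene, stayed close to the reference level. Control arrays were at 4.96, 4.92 and 4.72 and Chd7f/f arrays at 4.98, 4.80 and 5.51. Chd7f/f replicate 3 was 0.53 above the next array, and the others lay close together. The difference was 0.23 (SE 0.21; limma, adjusted p = 0.9998) and 0.023 without Chd7f/f replicate 3. It was 0.38 when Chd7f/f replicate 2 was omitted and 0.47 with array weights.

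C1qa, C1qb and C1qc encode the A, B and C chains that assemble into C1q, the recognition molecule of the classical complement pathway, made mostly by macrophages. C1qb was at 7.56, 8.37 and 6.56 in the control and at 8.34, 7.30 and 8.63 in Chd7f/f. C1qa was at 6.42, 6.65 and 5.92 in the control and at 6.60, 6.27 and 6.71 in Chd7f/f. C1qc was at 6.04, 6.07 and 5.37 in the control and at 6.08, 5.33 and 6.06 in Chd7f/f. Control replicate 2 and Chd7f/f replicates 1 and 3 were high for all 3 chains, and control replicate 3 and Chd7f/f replicate 2 were low for all 3. Control replicate 1 was with the high arrays for C1qc and between the sets for C1qa and C1qb. High and low arrays are thus found in both genotypes. The differences were 0.59 (SE 0.54) for C1qb, 0.20 (SE 0.22) for C1qa and 0.00028 (SE 0.29) for C1qc (limma, adjusted p = 0.9998 each), and exact permutation p values were 0.6, 0.6 and 1.0. Without control replicate 2 the difference of C1qb was 1.03. Without control replicate 3 that of C1qb was at 0.12, C1qa at -0.0077 and C1qc at -0.23.

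**Figure D2:**
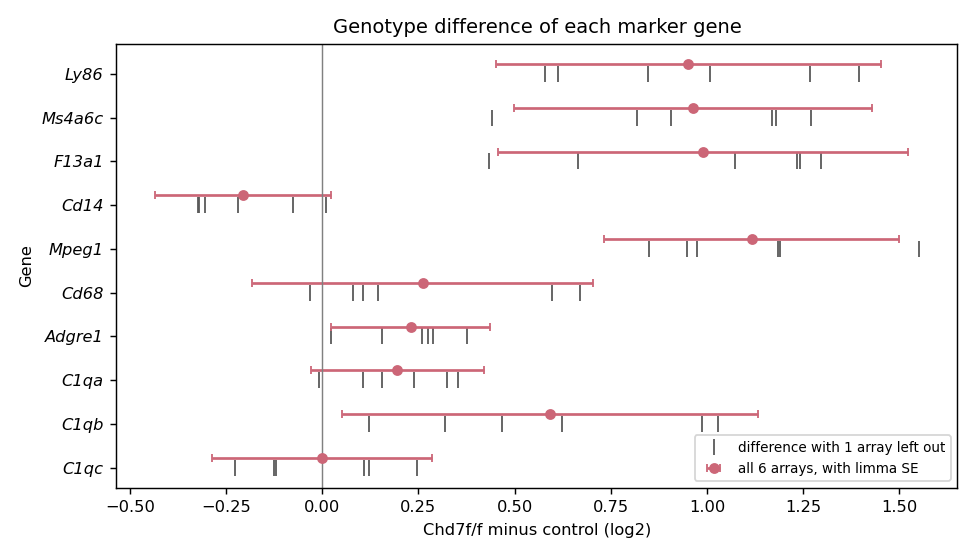
The plot of genotype differences gives Chd7f/f minus control (log2, horizontal axis) for each marker gene, with the limma standard error as a bar, and ticks for the value with each array left out in turn. Ly86, Ms4a6c, F13a1 and Mpeg1 keep values above 0.4 in all 6 of these fits, while Cd14, Cd68, C1qa and C1qc have ticks on both sides of 0.

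Co-variation over the arrays separated the markers only partly along their textbook roles. All 45 pairs had a Pearson r above 0 over the 6 arrays, and all 45 did after each genotype was centred on its own mean. Of the 45 pairs, 16 had an exact permutation p under 0.05, and 0 passed after Benjamini-Hochberg adjustment over the 45, where the smallest adjusted p was 0.0625. Arrays share their preparation and both profiles hold the same 6 points, so the pairs are not independent of each other. For scale, 47.2% of all other tested genes had an r above 0 with the mean of Ly86, Ms4a6c and F13a1, and 48.0% with the mean of the C1q chains.

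The C1q chains varied together, with C1qc less close than the other two. C1qa and C1qb had an r of 0.988 (exact permutation p = 0.00139, the smallest that 6 arrays can give; rho 1.0, exact p = 0.00278; adjusted p = 0.0625). It was 0.994 without the 2 arrays farthest from the median of C1qa. C1qa with C1qc had an r of 0.869 and C1qb with C1qc 0.846 (exact permutation p = 0.0417 and 0.0278, adjusted 0.125 and 0.0938; rho 0.714 for both, exact p = 0.136), and without the 2 farthest arrays 0.781 and 0.756. The mean r within the chains was 0.901, and 0.949 with genotypes centred.

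Cd68 had a higher r with each C1q chain than with Mpeg1. Its r was 0.941 with C1qb (exact permutation p = 0.0153, adjusted 0.0764; rho 0.829, exact p = 0.0583; 0.973 without the 2 farthest arrays), 0.904 with C1qa and 0.816 with C1qc, against 0.645 with Mpeg1. The difference between these correlations was not tested. Ly86, listed as a monocyte marker, was also close to the chains, at an r of 0.954 with C1qb (exact permutation p = 0.00694, adjusted 0.0625; rho 0.943, exact p = 0.0167; 0.883 without the 2 farthest arrays). With its chromosomal neighbour F13a1 the r of Ly86 was 0.864 (exact permutation p = 0.0292, adjusted 0.0938; rho 0.6, exact p = 0.242), but 0.216 without control replicate 3 and Chd7f/f replicate 3, so that relation rests on those arrays.

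F13a1 and Ms4a6c also varied together. Their r was 0.935 (exact permutation p = 0.0153, adjusted 0.0764; rho 0.943, exact p = 0.0167), and 0.979 once control replicate 1 and Chd7f/f replicate 3 were omitted. With C1qc the r was 0.492 for F13a1 and 0.266 for Ms4a6c, and the mean r over the 3 chains was 0.676 for F13a1 and 0.491 for Ms4a6c, beside 0.691 for Mpeg1, 0.875 for Ly86 and 0.887 for Cd68. Adgre1, listed as a tissue macrophage marker, had an r of 0.934 with F13a1 (exact permutation p = 0.0278, adjusted 0.0938; rho 0.486, exact p = 0.356) and a mean of 0.697 with the chains. The relation of Adgre1 with F13a1 turned to -0.565 without control replicate 3 and Chd7f/f replicate 3. Cd14, near the reference level, had an r of 0.109 with F13a1, 0.150 with Ms4a6c and 0.340 with Ly86. With Ly86 the rho was 0.657 (exact permutation p = 0.175), and the r with genotypes centred was 0.773. The r of Cd14 was 0.190 with Mpeg1, 0.295 with Adgre1, 0.399 with C1qa and 0.468 with C1qb. It was 0.607 with C1qc and 0.684 with Cd68 (exact permutation p = 0.131 and 0.125, adjusted 0.210 and 0.208).

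**Figure D3:**
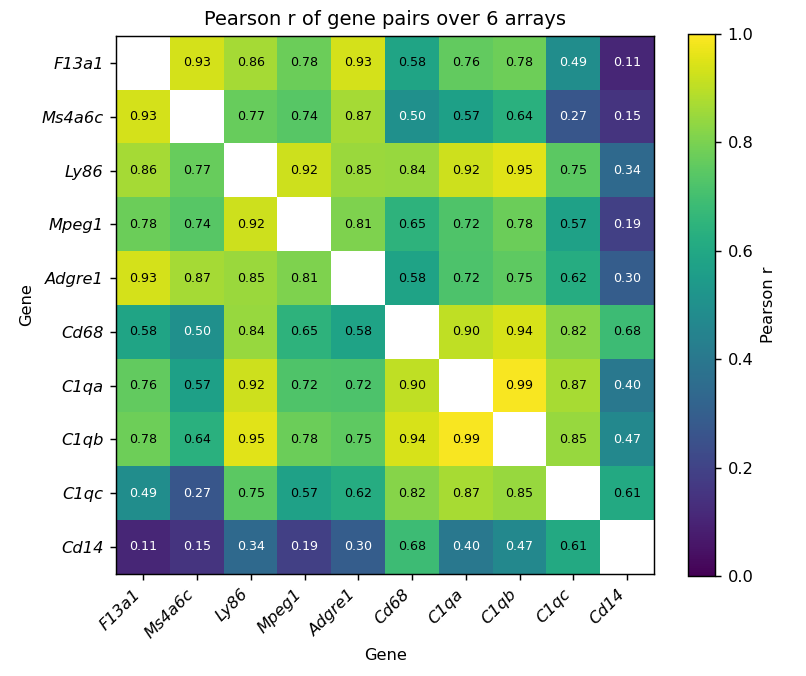
The grid of correlations gives Pearson r over the 6 arrays for each pair of marker genes, coloured from 0 to 1. Cd68 and the C1q chains form a block between 0.82 and 0.99, F13a1 and Ms4a6c pair at 0.935, Ly86 is between 0.75 and 0.95 with the genes of both blocks, and Cd14 holds the lowest values of the grid, with F13a1 and Ms4a6c.

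The means of Ly86, Ms4a6c and F13a1 and of the C1q chains shared their highest and lowest arrays. They differed in the size of their deviations and in the order of the other arrays. Relative to the average over the arrays, the mean of Ly86, Ms4a6c and F13a1 was at -0.49, 0.025 and -0.99 in the control and at 0.15, -0.12 and 1.43 in Chd7f/f. The mean of the C1q chains was at -0.0084, 0.35 and -0.73 in the control and at 0.32, -0.38 and 0.45 in Chd7f/f. Chd7f/f replicate 3 was highest and control replicate 3 lowest in both, and the step up to Chd7f/f replicate 3 in the monocyte mean comes mainly from F13a1 and Ms4a6c, whose gaps of 1.62 and 1.48 to the next array exceed those of Adgre1 (0.53) and Ly86 (0.47). Ranges over the arrays were 2.37, 2.30 and 2.76 for Ly86, Ms4a6c and F13a1 and 0.78, 2.08 and 0.74 for C1qa, C1qb and C1qc. A difference of the means, taken without scaling, therefore reflects these unlike ranges as well as the order of the arrays. The monocyte mean minus the C1q mean was -0.48, -0.32 and -0.26 in the control and -0.18, 0.26 and 0.98 in Chd7f/f. With Cd14 counted among the monocyte genes it was -0.39, -0.24 and 0.011 in the control and -0.19, 0.16 and 0.65 in Chd7f/f, and the genotypes overlapped. Their separation on the first measure thus depends on the omission of Cd14. No p is given for it, since it is a score over genes taken up with results known and with Cd14 left out after its level was seen. The r between the profiles was 0.771, and 0.609 without control replicate 3. With any other array left out it lay between 0.790 and 0.821. Chd7f/f replicate 3 was the highest array for 7 of the 10 genes and for 11.6% of all genes tested, and control replicate 3 the lowest for 7 of 10 and for 13.6%.

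**Figure D4:**
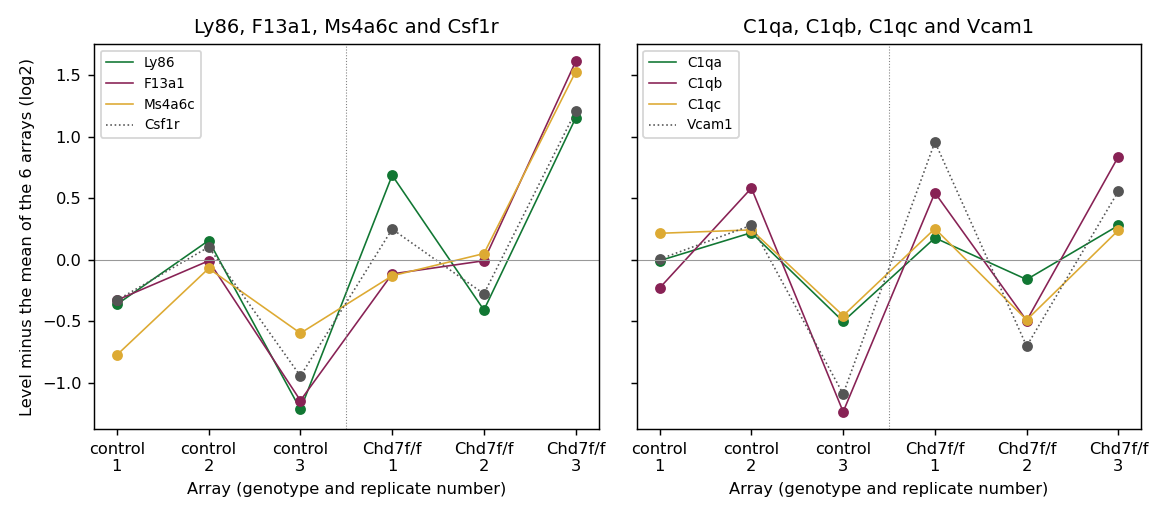
The profile plot shows each gene's level minus its mean over the 6 arrays (log2, vertical axis) by array, with lines that only join the points of one gene, for Ly86, F13a1, Ms4a6c and Csf1r on the left and for the C1q chains and Vcam1 on the right. On the left Chd7f/f replicate 3 is the highest array for every gene, and on the right control replicate 2 and Chd7f/f replicates 1 and 3 are all above 0.

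The genes most like each profile, out of 3221 tested genes that ranged over at least 1 log2, were then listed by Pearson r over the 6 arrays. For the mean of the 4 monocyte markers they were Csf1r (0.991), whose product binds the growth factor on which monocytes and macrophages depend, Sorl1 (0.990), Plvap (0.988), Plekho1 (0.984) and Gpx2-ps1 (0.982). Csf1r was at 6.66, 7.09 and 6.04 in the control and at 7.23, 6.71 and 8.19 in Chd7f/f, a difference of 0.78 (SE 0.44; limma, adjusted p = 0.9998). For the mean of the C1q chains they were Ifngr1 (0.976), a chain of the interferon gamma receptor, Gaa (0.973), the lysosomal acid alpha-glucosidase, the cytokine gene Il18 (0.955), Pilra (0.950) and Vcam1 (0.947), an adhesion molecule that spleen macrophages carry. Vcam1 was at 7.10, 7.38 and 6.003 in the control and at 8.05, 6.39 and 7.65 in Chd7f/f. With so many genes and 6 arrays, high values are to be found for any profile. An r of 0.9 was reached by 0.703% of all other tested genes with the mean of the 4 monocyte markers. With the C1q mean it was reached by 0.735%. Those shares are over 15516 genes and not over the 3221 from which the genes above were listed.

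Further genes of monocytes came from a list of 19, of which 18 were measured. Of 17 tested, 15 had a difference above 0 and 2 below, with a median of 0.53, and 0 passed the adjusted test (limma), while 1 had an unadjusted p under 0.05. Cybb, the heme-bearing subunit of the phagocyte oxidase, was 1.13 higher on average (SE 0.39; limma, unadjusted p = 0.0265, adjusted p = 0.9998). The lysosomal protease gene Ctss differed by 1.08 (SE 0.51), the integrin gene Itgam by 0.83 (SE 0.39) and the proteoglycan gene Vcan by 0.34 (SE 0.19). Vcan was above the reference level on only 1 array and Itgam on 4. That median was 0.32 if control replicate 3 was omitted, 0.18 if Chd7f/f replicate 3 was, and 0.93 under array weighting. An r of at least 0.8 with the mean of Ly86, Ms4a6c and F13a1 was found for 9 of the 17, and for 1.80% of all other tested genes. With the C1q mean, 5 of the 17 reached it. When Chd7f/f replicate 3 was omitted, 4 of the 17 reached 0.8 with the monocyte mean and 5 with the C1q mean. Omitting control replicate 1 or control replicate 3 changed the count with the C1q mean to 8 or 1.

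Among macrophage genes of the spleen, 11 of 18 tested had a higher r with the C1q mean than with the mean of Ly86, Ms4a6c and F13a1, and 7 the reverse. The share of all genes with that order is not given. It was also found for 7 of 11 receptor and partner genes of Cd14 and Ly86 and 3 of 4 B cell markers. For the further monocyte genes it was 7 of 17, so the order is not particular to spleen macrophage genes. Of the 18, 16 had a difference above 0 and 2 below, the median was 0.24 (0.10 with control replicate 3 omitted, 0.37 with control replicate 2 omitted), and 0 passed the test at adjusted or unadjusted p under 0.05 (limma). Those with the smallest p were Itgad (0.46, SE 0.25), the phagocytic receptor kinase gene Mertk (0.25, SE 0.14), the phagosomal metal transporter gene Slc11a1 (0.41, SE 0.23) and Cd5l (0.55, SE 0.35), a secreted protein of macrophages. With the C1q mean, 10 of the 18 had an r of at least 0.8, and 2.73% of all other tested genes did. With the mean of Ly86, Ms4a6c and F13a1 the count was 4 of 18. Siglec1, the sialoadhesin of marginal zone macrophages (r = 0.950), Hmox1, the heme oxygenase (r = 0.941), and Mrc1, the mannose receptor (r = 0.921), were among the 10 and over the same 6 arrays had r of 0.693, 0.585 and 0.616 with the monocyte mean. Those gaps rest largely on Chd7f/f replicate 3. With it omitted, the r of Siglec1, Hmox1 and Mrc1 with the monocyte mean was 0.80, 0.873 and 0.841, and 8 of the 18 genes reached 0.8 with that mean, against 9 with the C1q mean. With control replicate 1 omitted, 6 reached it with the monocyte mean. Of the spleen macrophage genes named, Siglec1 and Cd5l were above the reference level on only 3 arrays and Itgad on 2.

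The receptors and partners of Cd14 and Ly86 showed no common direction. Of 11 tested, 7 were above 0 and 4 below, with a median of 0.024 that lay between -0.082 and 0.094 with 1 array omitted, and 0 passed at adjusted or unadjusted p under 0.05 (limma). Ly96, which encodes MD-2, differed by 0.43 (SE 0.25), Lbp by 0.23, the adaptor genes Tirap by -0.32 and Ticam1 by -0.11. Tlr4 was at or under the reference on all 6 arrays, as were Tlr1 and Ticam2. Cd180, the receptor that MD-1 holds, was above the reference on 3 arrays, control replicate 2 at 5.38 and Chd7f/f replicates 1 and 3 at 5.44 and 5.17, the same 3 on which C1qb was highest.

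Other genes listed with the classical complement pathway, receptors and binding partners among them, differed among themselves. With the C1q mean, 2 of 11 tested genes had an r of at least 0.8, C1rb at 0.836 and the surface receptor gene Cd93 at 0.857. Of the 11, 6 were above 0 and 5 below, with a median of 0.044, 0 passed the adjusted test (limma), and for 1 the unadjusted p was under 0.05. The median was 0.18 with control replicate 2 omitted, 0.13 with Chd7f/f replicate 1 omitted, and below 0 with any of the other arrays omitted, down to -0.13. The gene under 0.05 was C1ra, a protease of the C1 complex, at -0.44 (SE 0.16; limma, unadjusted p = 0.0324), which was above the reference on 1 array. Lrp1, a receptor for C1q-bound material, differed by 0.27, C4a by 0.24 and C2 by -0.51, the last 0.37 without control replicate 2. C4a was above the reference on only 1 array and C2 on 4. C1s1, C1s2 and the inhibitor gene Serping1 were at or under the reference on every array.

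Of 11 tested transcription factors of monocytes and macrophages, 10 had a difference above 0 and 1 below, the median was 0.16 (0.058, 0.32 and 0.061 with control replicate 1, Chd7f/f replicate 2 and Chd7f/f replicate 3 omitted), and 0 passed at adjusted or unadjusted p under 0.05 (limma). Cebpa differed by 0.25 (SE 0.14), Spic, which directs red pulp macrophages, by 0.61 (SE 0.39), Irf8, a factor of monocyte development, by 0.26 (SE 0.17) and Maf by 0.16 (SE 0.12). Irf8 had an r of 0.990 with the mean of Ly86, Ms4a6c and F13a1 and 0.841 with that of the C1q chains, while Spic had 0.578 and 0.829. With Chd7f/f replicate 3 omitted, these were 0.966 and 0.929 for Irf8 and 0.813 and 0.849 for Spic, so the contrast rests largely on that array. Maf was under the reference on all arrays, and Cebpa above it on 1.

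Neutrophil markers were also high in Chd7f/f replicate 3. Their mean over 11 genes was between 4.46 and 5.09 in the control and between 4.67 and 5.71 in Chd7f/f, with that array on top. Of 8 tested, 7 had a difference above 0 and 1 below (median 0.25; limma, 0 at adjusted or unadjusted p under 0.05), and Camp, Ly6g, Retnlg and Mmp9 were at or under the reference on every array. Lcn2 was at 9.01, Ngp at 7.21 and Ltf at 6.42 in Chd7f/f replicate 3, against at most 8.53, 6.51 and 5.39 elsewhere. The part of neutrophil RNA in the values of F13a1, Ms4a6c and Ly86 was not tested.

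Of the other marker lists, only that of dendritic cells had its highest mean on Chd7f/f replicate 3. Mean levels in control and Chd7f/f ran from 5.16 to 5.22 and 5.03 to 5.36 for 9 dendritic cell markers, from 4.18 to 4.59 and 4.16 to 4.32 for 7 B cell markers, and from 4.34 to 4.54 and 4.39 to 4.53 for 8 T and NK cell markers. At or under the reference on every array were 2, 3 and 5 of these, among them Siglech, Ms4a1 and Cd3g. Mean levels ran from 9.64 to 10.4 and 9.32 to 10.4 for 6 erythroid, from 5.77 to 6.11 and 5.38 to 5.70 for 6 megakaryocyte, from 8.13 to 8.84 and 8.68 to 8.84 for 7 mast cell and basophil, from 9.22 to 9.72 and 9.37 to 10.3 for 8 progenitor, and from 5.13 to 6.16 and 5.56 to 6.17 for 6 stromal and endothelial markers.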

How the data were processed

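The deposited table gives, for every array, a log2 value of each probe set. The submitters' processing notes list Affymetrix Expression Console and RMA, with no version or setting. RMA corrects background, equalises arrays and summarises probes, so differences in total signal are no longer visible. The 41345 probe sets lie between 1.78 and 13.5, with array medians from 4.72 to 4.84. Probe sets were named from the platform annotation, with symbols updated in RefSeq (GRCm38.p6) for 21994 of 22180 genes. There were 23521 probe sets with 1 symbol, 1814 with several and 16010 with none listed. The highest-mean probe set was kept per gene, and genes at or above the 30th percentile (4.13) were tested.

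The test between genotypes was limma 3.58.1 under R 4.3.3 (lmFit, eBayes, no covariate, Benjamini-Hochberg over 15526 genes). It was also run on simulated data whose normal noise met its assumptions. That run does not check the test where single arrays stand apart, as here. Correlations over arrays were computed in Python with scipy 1.17.1. All 10 genes, Chd7, Kit and Csf1r were named whatever their values, with up to 4 genes of smallest p per related list and the 5 genes most like each profile; further genes were named after their values were seen. The genes and lists were chosen with earlier results of these data known. Alternatives left out each array in turn or both arrays numbered 1, filtered not at all or at the 50th percentile, normalized by quantiles again or by medians, averaged probe sets, weighted arrays, changed the prior to a trended and robust one, and blocked on the replicate number. Same-numbered arrays did not deviate together (r of deviations 0.027, -0.025 and 0.034). Counts of genes alike to a profile with each array left out, and the profile contrast with Cd14 included, were added after seeing the data.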

Additional observations from a re-analysis of the deposited data

How the results depend on the processing

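No alternative brought a marker gene or any other gene past an adjusted p of 0.05 (limma, 0 in each of 15 alternatives). By an unadjusted p under 0.05 and a 1.5-fold difference, 1 marker gene was called; this count ran from 0 to 2 with 1 array left out (0 without control replicate 3 or Chd7f/f replicate 3), was 4 with array weights and 0 without both arrays numbered 1. Over all genes that count was 121, ran from 128 (without control replicate 1) to 283 (without control replicate 2) with 1 array left out and was 186 with array weights. Marker genes without overlap between genotypes were 1 of 10, beside 6.81% of all genes. That count ran from 1 to 3 with 1 array left out, and was 3 without both arrays numbered 1. Fewer arrays make such a gap easier to reach for any gene. The share of all genes at these settings is not given, so the rise is not read as better separation. With the replicate number as a block, Mpeg1 was again the 1 marker gene called, but the numbers do not pair the samples.

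The mean r within Ly86, Ms4a6c and F13a1 was 0.855, ran from 0.663 (without Chd7f/f replicate 3) to 0.925, and was 0.960 without both arrays numbered 1 and 0.764 with genotypes centred. With the C1q chains, the mean r of Adgre1 ran from 0.618 to 0.909 and was 0.599 after another quantile normalization, that of Cd68 ran from 0.868 to 0.958 and was 0.954 without both arrays numbered 1, and that of Mpeg1 ran from 0.561 to 0.864 and was 0.814 with genotypes centred. Above the 99th percentile of sensory receptor probe sets, 2 marker genes remained on all arrays.

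Some differences changed sign. Without control replicate 3 Cd68 was at -0.032, C1qa at -0.0077 and C1qc at -0.23; without both arrays numbered 1 Cd68 was at -0.037, C1qc at -0.019 and Kit at -0.10. Without Chd7f/f replicate 1 C1qc was at -0.13 and Kit at -0.041, without Chd7f/f replicate 3 C1qc was at -0.12, and without Chd7f/f replicate 2 Cd14 was at 0.0093. Chd7 was at 0.22 and C2 at 0.37 without control replicate 2, and C4a at -0.033 with array weights. With 1 array left out, these differences ran from -0.32 to 0.0093 for Cd14, -0.032 to 0.67 for Cd68, -0.0077 to 0.35 for C1qa, -0.23 to 0.25 for C1qc, -0.89 to 0.22 for Chd7, -0.041 to 0.36 for Kit and -0.97 to 0.37 for C2. The causes were not tested. Signal near the reference limits Cd14, Adgre1 and Ms4a6c most.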

Other observations

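Some genes of the lists stood well above all other arrays on 1 array, and are named here after their values were seen. Clec4e, which encodes the phagocyte lectin Mincle, reached 9.70 in control replicate 1, where the remaining arrays spanned 4.12 to 7.05. Slc40a1, the iron exporter ferroportin of macrophages and red cell precursors, reached 9.80 on the same array, against at most 7.38 elsewhere. Slc4a1, the anion exchanger of red cells, reached 11.5 there. It was also high in Chd7f/f replicate 3, at 9.14, against at most 7.28 on the remaining arrays. C2, a complement protease gene, stood at 7.06 in control replicate 2, against at most 4.97 elsewhere. Hpgd, the prostaglandin dehydrogenase gene, stood at 7.01 in Chd7f/f replicate 2, against at most 4.79 elsewhere. Ms4a6b, another MS4A gene, stood at 6.47 in Chd7f/f replicate 3, against at most 4.73 elsewhere, and Lyz2, the lysozyme of myeloid cells, stood at 8.61 there, against at most 6.89 elsewhere.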
